A study of Mus musculus with 2 samples.

Results

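Blood cells were carried along with the neural tissue when the telencephalic vesicles of mouse embryos were dissociated for single cell RNA sequencing, and 515 barcodes of that library held the RNA of embryonic red cell precursors. The study from which they come asks how cell adhesion and a homeobox transcription factor shape the embryonic cerebral cortex, and its single cell libraries served to chart the cell types of the brain. The telencephalic library was made from wild-type C57BL/6J embryos labelled E12, for which the study's methods give an age range of E11.5 to E12, pooled from 3 embryos of 2 litters, with about 20000 cells loaded on 1 droplet run of the Chromium 3′ v3.1 kit, after enzymatic dissociation and passage through 30 and 10 µm strainers. Embryos cannot be told apart within the pool and each condition has 1 library, so no significance test was made. The intervals given are exact 95% intervals that cover counting error only, except that of a ratio of median depths near the end. A barcode was counted as erythroid when it held at least 1000 unique molecular identifiers (UMIs, which count transcript molecules) and when 7 globin genes (*Hba-x*, *Hba-a1*, *Hba-a2*, *Hbb-y*, *Hbb-bh1*, *Hbb-bs* and *Hbb-bt*) made up at least 10% of them. This rule was met by 515 of 13373 barcodes with that depth (3.85%, Clopper-Pearson interval 3.53 to 4.19) out of 14283 barcodes in the library and 20110 in the series. The labels name no transgene, treatment or sort for this library, and the other 12858 barcodes of at least 1000 UMIs served as the comparison.

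The first red cells of the mouse embryo arise in the yolk sac and enter the circulation as nucleated erythroblasts, where they go on dividing and maturing together before they lose their nuclei. These primitive cells use mainly the embryonic β-type globins, while the definitive cells that later leave the fetal liver use the adult β-type ones. During maturation the precursors take up iron through the transferrin receptor, make haem in 8 enzymatic steps shared between mitochondrion and cytosol, build a spectrin-based membrane skeleton, and clear most other transcripts and organelles.

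The members were chosen by their globin UMIs, so the globin values describe them and test nothing, and no other gene was tested either. The globin share of a member ran from 10.0% to 77.1% with a median of 52.8%, against a median of 0.429% in the other barcodes. The 3 members nearest the threshold held 10.03, 10.04 and 10.13% globin, and the 3 barcodes nearest below it held 9.96, 9.69 and 9.62%. Of the globin UMIs of all members, 55.3% came from *Hbb-y* and 22.0% from *Hba-x*, the embryonic β-type and α-type chains, 6.34% from the early embryonic β-type *Hbb-bh1*, 8.34% from *Hba-a1*, 4.42% from *Hba-a2*, 3.11% from *Hbb-bt* and 0.547% from *Hbb-bs*. The adult α pair and the adult β pair are each near-identical copies, so the division of reads within a pair is uncertain.

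The name of these cells was checked against erythroid genes that the rule did not use. *Slc4a1*, the anion exchanger band 3, had a UMI in 463 of 515 members, and *Alas2*, the erythroid first enzyme of haem synthesis, in 438. *Hemgn*, a nuclear protein of erythroid cells, was found in 413 members, *Klf1*, the erythroid Krüppel-like factor, in 291, and *Gata1*, the master regulator of the lineage, in 144. *Klf1* and *Gata1* are weakly expressed genes, with a median of 1 and 0 UMIs per member, so that a member without a UMI need not lack the transcript. In the other barcodes *Alas2* had a UMI in 4.9% and *Slc4a1* in 2.92%, although these held more UMIs, with a median of 9075 against 5529. Per 1000 globin UMIs, *Hemgn* counted 0.737 UMIs in members and 0.747 in the other barcodes. For this gene the RNA outside the members stood to globin as it did inside them. The proportions differed for *Slc4a1* (0.982 against 0.743), *Rhd* (0.887 against 0.613) and *Kel* (0.434 against 0.220), which were lower outside, and for *Alas2* (0.818 against 1.099), which was higher. *Fth1*, which many cells use, counted 18.1 in members and 299 outside. The part of free RNA in the other barcodes was not tested.

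The members were not all of 1 kind. A list of 20 neural genes made up a median of 0.878% of the non-globin UMIs in the other barcodes, and in the 48 members with 10 to 15% globin it made up 0.707%, close to that level. In the 251 members with 50 to 60% globin it made up 0.167%. Scrublet, which marks barcodes that resemble the sum of 2 cells, marked 59 members (11.5%), of which 58 lay among the 129 with the lowest globin share, and 707 of the other barcodes (5.50%). Those 129 members held 1145809 of the 2318526 non-globin UMIs of all members, so sums over all 515 carry much neural RNA. Values are therefore also given for the 278 members whose neural share was at most 25% of the median of the other barcodes (0.220% of non-globin UMIs or less), called low-neural members. This limit was applied to the fold counts after the data had been seen. Low-neural members had a median of 54.0% globin, 5831.5 UMIs and 1176.5 detected genes, and Scrublet marked 0 of them. As neural genes chose them, their low levels of such genes are no result.

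**Figure D1:**
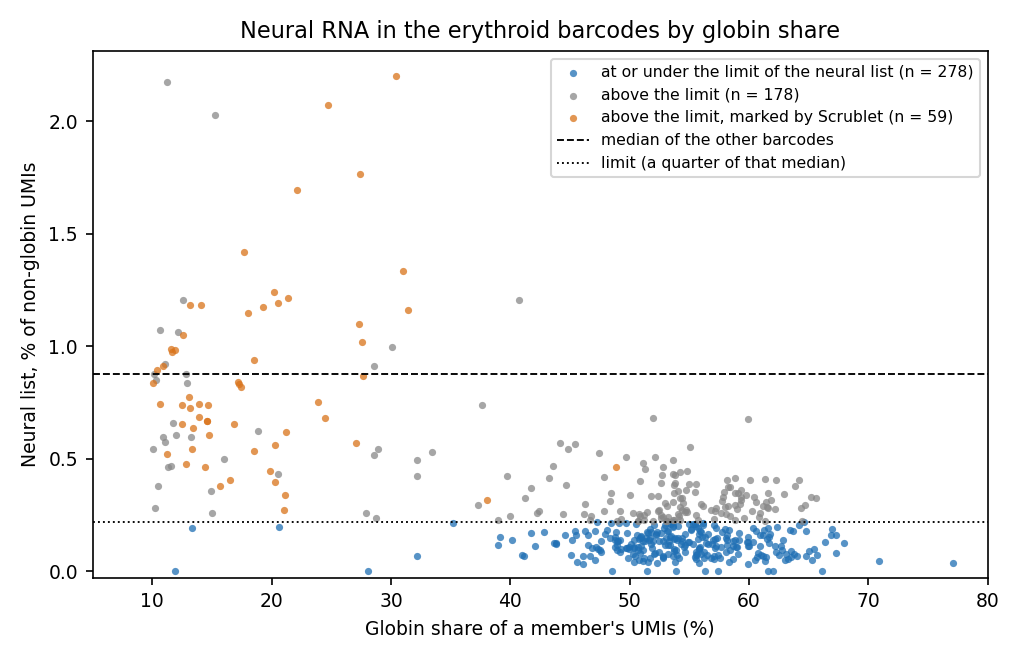
Each point is a member, placed by its globin share (x axis, % of UMIs) and by the share of 20 neural genes among its non-globin UMIs (y axis, %), with colours for the neural limit and for the Scrublet mark. Members under 30% globin mostly lie between the 2 lines or above them, where the dashed line is the median of the other barcodes (0.878%), and the dense cloud near 54% globin lies low.

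RNA of other blood and vessel cells was measured with fixed lists. Of 12 macrophage genes, 9 had 0 UMIs in members, among them *C1qa*, *C1qb*, *C1qc* and *Csf1r*, and the whole list came to 3.02 CPM (UMI counts scaled to 10 to the power of 6 non-globin UMIs) against 43.8 CPM in the other barcodes, with *Ctss* the most abundant. The 12 endothelial genes came to 17.7 CPM against 45.1, led by *Egfl7*, with *Kdr* at 0 UMIs, and the 10 mesenchymal genes to 38.4 CPM, led by *Col3a1*, against 140 CPM in the other barcodes. The 10 mast cell and granulocyte genes came to 4.31 CPM against 21.4, with *Prtn3* as the sole gene above 0. A count of 0 in the summed members, such as that of *Kdr*, has an exact upper limit of 1.59 CPM, and the floor of 3 counts used for ratios stands for 1.29 CPM. Of 12 megakaryocyte and platelet genes, *Itga2b* (14.7 CPM) and *Gp9* (7.33 CPM) made up most of 27.2 CPM in all. This list was higher than in the other barcodes (19.9 CPM), 1.36-fold (1.05 to 1.75) and 1.94-fold in low-neural members, where 1 of its genes was at least 4-fold higher. A single member with mostly adult globin, described below, held 6 of its UMIs. Without that member the list came to 24.6 CPM, for which no interval was computed.

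Promoters of 5 genes named in the following paragraphs, picked among those that hold the motif, are shown here, since erythroid genes are known to carry sites for GATA1, whose core motif is spelled AGATAA. Each sequence is the RefSeq stretch of up to 250 bases upstream of the gene start (GRCm38.p6), written 5′ to 3′ on the strand of the gene and ended before the start of the gene in the GENCODE annotation, with AGATAA or its reverse complement TTATCT in capitals.
*Alas2*, first enzyme of erythroid haem synthesis, chrX:150547167-150547374, plus strand: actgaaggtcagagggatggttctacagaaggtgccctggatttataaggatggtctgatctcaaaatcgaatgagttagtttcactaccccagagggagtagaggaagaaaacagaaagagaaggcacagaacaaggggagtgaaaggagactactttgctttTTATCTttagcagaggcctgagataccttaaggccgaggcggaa
*Epor*, receptor for erythropoietin, chr9:21963577-21963826, minus strand: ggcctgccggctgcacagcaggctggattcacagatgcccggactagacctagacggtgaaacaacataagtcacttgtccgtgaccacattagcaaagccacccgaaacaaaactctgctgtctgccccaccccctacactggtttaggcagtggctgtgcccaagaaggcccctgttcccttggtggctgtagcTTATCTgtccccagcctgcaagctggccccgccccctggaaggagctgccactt
*Kel*, blood group metalloprotease, chr6:41704340-41704575, minus strand: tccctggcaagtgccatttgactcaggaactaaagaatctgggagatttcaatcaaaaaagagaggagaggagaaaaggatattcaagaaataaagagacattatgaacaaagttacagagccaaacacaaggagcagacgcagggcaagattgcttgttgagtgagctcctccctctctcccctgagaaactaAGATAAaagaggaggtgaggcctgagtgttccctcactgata
*Rhd*, Rhesus blood group protein, chr4:134864286-134864535, plus strand: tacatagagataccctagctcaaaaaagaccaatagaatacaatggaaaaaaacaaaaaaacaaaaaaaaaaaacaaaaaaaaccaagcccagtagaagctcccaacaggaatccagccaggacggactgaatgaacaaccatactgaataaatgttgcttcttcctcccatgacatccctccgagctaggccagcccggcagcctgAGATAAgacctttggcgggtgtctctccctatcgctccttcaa
*Hsd3b6*, steroid dehydrogenase, chr3:98814444-98814693, minus strand: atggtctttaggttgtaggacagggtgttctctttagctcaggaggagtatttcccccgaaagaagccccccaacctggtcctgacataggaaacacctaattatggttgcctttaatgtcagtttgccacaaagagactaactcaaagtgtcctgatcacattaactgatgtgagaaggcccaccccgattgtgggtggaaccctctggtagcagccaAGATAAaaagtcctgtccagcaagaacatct
The motif, searched on both strands in the 250 bases upstream, was present in 11.4% of 27025 genes with a listed promoter and in 6.64% of those compared below, where 407 of 6133 held it. Among genes at least 4-fold higher in members 38 of 208 held it (18.3%), among the 15 highest 5 of 11, among the membrane and skeleton genes 5 of 13, among the erythroid factors 2 of 10 and among the haem enzymes 1 of 6. Among genes at least 4-fold lower 4 of 42 held it (9.52%). A match is a description of the sequence and does not show that a factor binds there.

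Members and other barcodes were then compared gene by gene, with the UMIs of each set summed and scaled to the non-globin UMIs, so that globin itself does not lower the levels of the other genes. The mitochondrial share of non-globin UMIs, a sign of RNA quality, had a median of 6.13% in members and 2.77% in other barcodes, and of 10.7% in the 28 members with 25 to 40% globin, and its part in the ratios was not tested. Of 7652 genes with at least 20 CPM in either sum, 266 were at least 4-fold higher in members (3.48%) and 60 at least 4-fold lower (0.784%). With the low-neural members in their place, 398 of 7788 genes were at least 4-fold higher (5.11%) and 1815 at least 4-fold lower (23.3%), and these included 265 of the 266 and all of the 60. The count of higher genes moved less than that of lower ones. Without the barcodes that Scrublet marked, 370 genes were higher and 1434 lower. The median log2 ratio over the genes compared was -0.41 with all members and -0.69 with low-neural members, which is the level against which the lists that follow can be read. With CPM over all UMIs, globin included, 156 genes were higher and 1152 lower.

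Haem synthesis stood high as a whole. All 8 of its enzymes were at least 4-fold higher in members, with a median log2 ratio of 4.16, and their summed level was 3912 CPM against 180 CPM in the other barcodes and 5884 CPM in low-neural members. *Alas2* (X:150547375-150570638 on GRCm38) counted 0 to 21 UMIs per member with a median of 2, and its level was 638 CPM (606 to 672) against 3.59, a 178-fold difference (162 to 195). *Cpox*, which acts inside the mitochondrion late in the pathway, was 41.8-fold higher, and *Fech*, which inserts the iron, 38.5-fold higher. The smallest difference of the 8 was that of *Ppox*, at 119 CPM and 8.52-fold (7.5 to 9.64), and *Uros*, at 107 CPM, had the lowest level. These levels are UMIs of a 3′ assay, in which a molecule counts once whatever its length.

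Iron handling was more mixed, with 9 of 16 genes at least 4-fold higher in members and 11 of 16 in low-neural members. *Slc25a37*, mitoferrin 1, which carries iron into the mitochondrion, had 0 to 33 UMIs per member with a median of 4, and stood at 1193 CPM against 14.0, 85.2-fold higher (80.8 to 89.9). *Abcb10*, which is known to stabilise mitoferrin, was 21.6-fold higher, and *Steap3*, the ferrireductase of the transferrin cycle, 85.9-fold (64.5 to 114). *Tfrc*, the transferrin receptor, was 5.55-fold higher at 220 CPM (201 to 239) and had a UMI in 278 members. The ferritin heavy chain gene *Fth1* was the most abundant of all genes outside globin, ribosomal and mitochondrial ones, with 0 to 374 UMIs per member, a median of 50, and 14162 CPM against 978, 14.5-fold higher (14.3 to 14.7). The ferritin light chain gene *Ftl1*, at 5198 CPM, was 3.14-fold higher in all members and 4.4-fold higher in low-neural ones. Both ferritin genes have many processed pseudogenes, so their reads may be split. *Slc40a1*, which exports iron, was low at 27.2 CPM but 20.6-fold higher than in the other barcodes. The genes that sense iron did not pass the threshold in all members, with ratios of 0.714 for *Ireb2* and 0.587 for *Aco1*, though *Aco1* was at 0.237 in low-neural members, and *Trf*, transferrin itself, had 0 UMIs in members.

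Of 19 genes of the membrane and its skeleton 15 were at least 4-fold higher with either set of members. Their median log2 ratio was 7.49, above that of haem synthesis, while their summed level, at 18.6-fold, differed less than the 21.8-fold of haem synthesis. *Slc4a1* had a median of 3 UMIs per member (0 to 19) and 766 CPM against 2.43, 316-fold higher (285 to 350). *Rhag*, *Rhd*, *Kel*, *Ermap* and *Icam4*, whose human counterparts carry blood group antigens, lay between 329-fold (*Icam4*) and 471-fold (*Kel*). Of the skeleton, *Sptb* was 267-fold, *Ank1* 142-fold and *Epb42* 180-fold higher. *Epb41*, *Add2* and *Slc2a1*, which brain cells use as well, had ratios of 2.88, 2.85 and 1.58 and did not pass. *Aqp1*, the water channel of the adult red cell, had 0 UMIs.

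Transcription factors of the lineage were present at low levels. Of 12 genes 7 were at least 4-fold higher, and 8 in low-neural members. *Klf1* stood at 211 CPM (193 to 230) and was 103-fold higher, *Zfpm1*, the GATA1 partner FOG1, at 166 CPM and 63.0-fold, and *Tal1* at 133 CPM and 136-fold. *Gata1* at 80.2 CPM and *Gfi1b* at 41.4 CPM were 173-fold and 206-fold higher. *Ldb1* (0.781, 0.641 to 0.942) and *Mxi1* (0.995, 0.865 to 1.14), which many tissues use, and *Lmo2* (2.22) did not pass.

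Of the erythropoietin pathway, the receptor and 1 target passed. *Epor*, without which definitive red cells are not made, had 147 CPM (132 to 164) and a UMI in 234 members, 193-fold higher than in the other barcodes, and *Pim1*, a kinase that its signal induces, was 5.89-fold higher at 243 CPM. These were 2 of 10 genes of the list, and *Pim1* was its most abundant. *Jak2* and *Stat5b*, which relay the signal, had ratios of 3.06 and 2.81, while *Stat5a* (5.18 CPM), *Cish* (7.76 CPM) and *Socs1* (1.73 CPM) were below the 20 CPM at which genes were compared. *Erfe*, the hormone by which stimulated erythroblasts release iron from stores, had 0.863 CPM.

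Genes against oxidative damage and for red cell metabolism followed, with 8 of 16 at least 4-fold higher and 11 of 16 in low-neural members. *Car2*, carbonic anhydrase 2, counted a median of 6 UMIs per member (0 to 50) and was 152-fold higher (144 to 160) at 1721 CPM. Its adult red cell relative *Car1* had 1 member with a UMI. *Blvrb*, flavin reductase, was 77.5-fold higher at 1644 CPM, and *Gpx1*, glutathione peroxidase 1, 15.8-fold at 3086 CPM. *Prdx2*, the thiol peroxidase that is a major protein of red cells, was 3.59-fold higher at 5050 CPM and 5.02-fold in low-neural members. *Bpgm*, which makes the ligand that lowers oxygen affinity, was 10.8-fold higher, and *Pklr*, red cell pyruvate kinase, 162-fold at 38.4 CPM. *Hmox1*, which breaks haem down, had 9 UMIs in all members, a ratio of 0.516 (0.236 to 0.983).

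**Figure D2:**
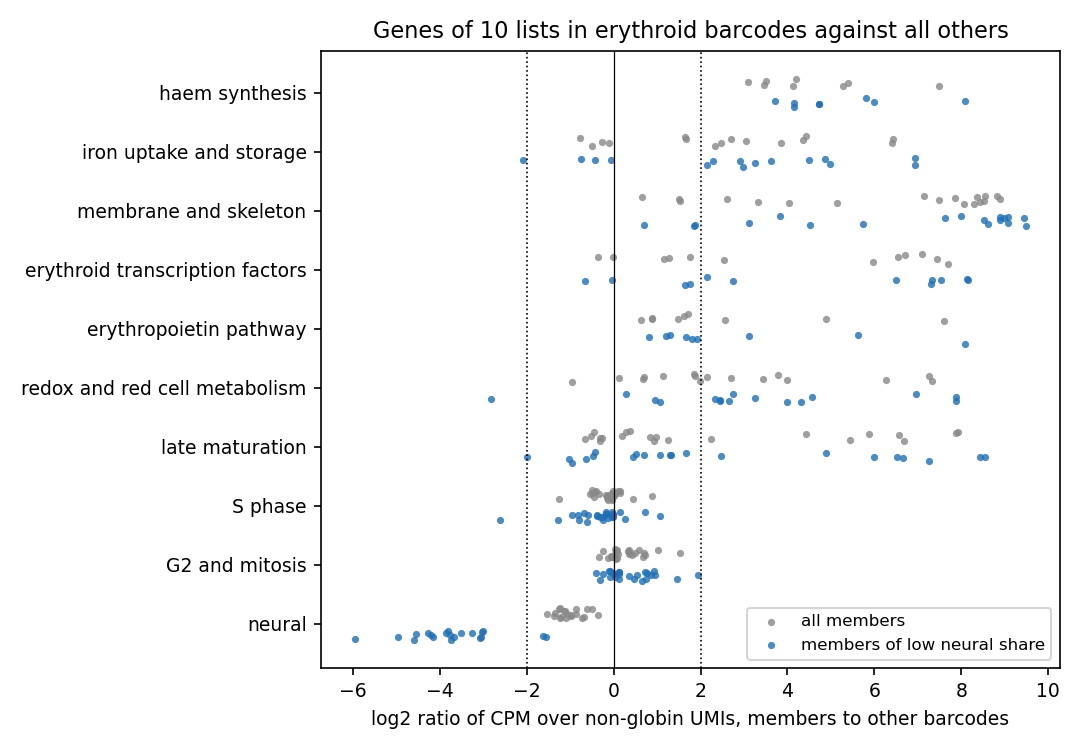
Each point is a gene of 1 of 10 lists, placed by its log2 ratio of CPM over non-globin UMIs between members and other barcodes, in grey for all 515 members and in blue for the 278 low-neural members; dotted lines mark the 4-fold thresholds and genes with 0 UMIs in any of the 3 sums are left out. The haem and membrane lists lie mostly to the right of the upper threshold, S phase and G2 genes lie around 0, and neural genes fall past the lower threshold with low-neural members, which they chose.

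Other cells of the embryo that store iron or line its vessels give a closer comparison. With globin under 10%, 63 barcodes held at least 10 UMIs of the macrophage list and 32 held at least 10 of the endothelial list, while 4 held both and were left out. The macrophage-gene barcodes also held 1774 CPM of the mast cell and granulocyte list and 1722 CPM of the megakaryocyte and platelet list. As a set they thus hold RNA of other blood cell lists too, and whether this lay in the same barcodes was not tested. Against the first, 259 of 7576 genes were at least 4-fold higher in members (3.42%) and 694 lower (9.16%), and against the second, 294 of 7674 were higher (3.83%) and 816 lower (10.6%). Ferritin was abundant in both sets. *Fth1* reached 3965 CPM in macrophage-gene barcodes and *Ftl1* 4925 CPM, so that *Fth1* was 3.57-fold higher in members and *Ftl1* about level, with a ratio of 1.06. *Slc25a37* was 79.9-fold higher than in macrophage-gene barcodes and 70.9-fold higher than in endothelial-gene ones. Of the haem enzymes *Cpox* was 62.4-fold and 27.2-fold higher, *Ppox* 9.56-fold and 17.2-fold, and *Alad* 17.2-fold and 7.63-fold, the last below the 8.49-fold of *Fth1* against endothelial-gene barcodes. *Slc40a1* ran the other way, with 68.9 CPM in macrophage-gene barcodes and 55.5 in endothelial-gene ones against 27.2 in members, and *Hmox1* stood at 164 CPM in the former. *Tal1*, at 28.2 and 32.7 CPM there, was 4.71-fold and 4.07-fold higher in members. *Lmo2*, used by blood and vessel cells alike, was highest in endothelial-gene barcodes at 281 CPM.

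**Figure D3:**
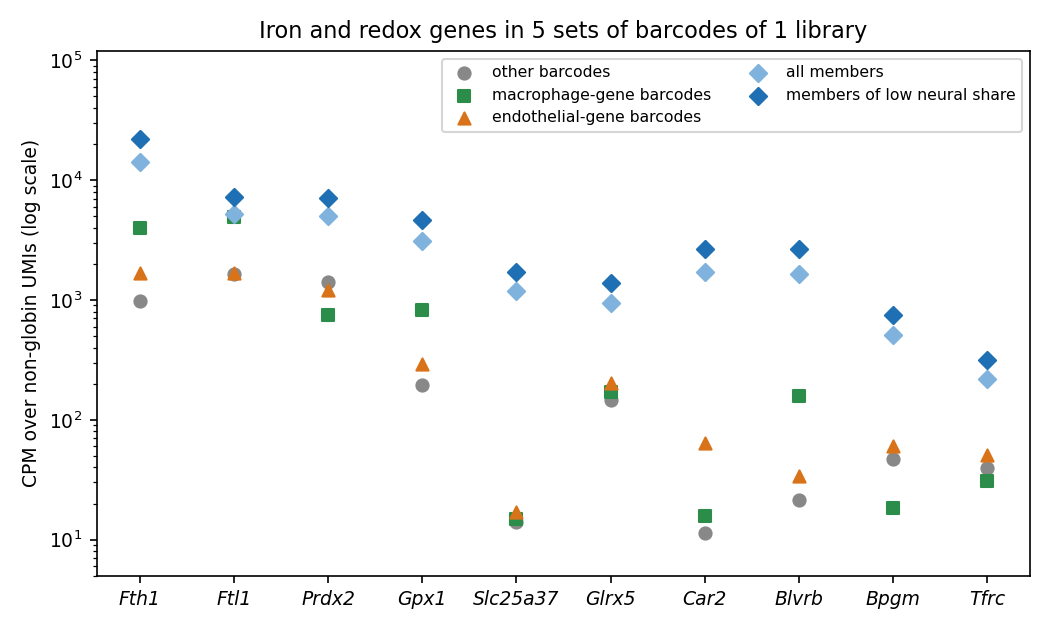
Levels of 10 iron and redox genes (y axis, CPM over non-globin UMIs, log scale) in 5 sets of barcodes from the same library: all 515 members, the 278 low-neural members, 63 macrophage-gene barcodes, 32 endothelial-gene barcodes and all 12858 other barcodes. Members lie above the comparison sets for all 10 genes, and for *Ftl1* the macrophage-gene barcodes (4925 CPM) come close to all members (5198 CPM).

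By ratio alone, and with at least 100 CPM in the higher sum, the gene highest in members was *5430401H09Rik*, a long non-coding RNA on chromosome 12 (32096613-32123702 on GRCm38), at 118 CPM against 0.137, or 858-fold (573 to 1337). *Pkhd1l1*, a large receptor-like protein gene with no well known red cell role, came next at 182 CPM and 575-fold (438 to 766). *Cldn13*, a claudin, was 568-fold and *Kcnn4*, the Gardos channel that lets potassium out of red cells, 476-fold higher. *Pdzk1ip1* (349-fold), the acid phosphatase gene *Acp5* (279-fold, 490 CPM) and *Hsd3b6*, a steroid dehydrogenase of the Hsd3b family (284-fold, 128 CPM), were the others outside the membrane list. The 10 lowest ratios ran from 0.192 (*Prkg1*) to 0.277 (*App*) and included the adhesion and guidance genes *Tenm4*, *Cdh4*, *Nlgn1*, *Tenm3* and *Epha7* of the neural tissue, and in low-neural members the same 10 lay between 0.0118 and 0.0836.

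The most abundant transcripts were of 2 sorts. *Tpt1* (5256 CPM), *Eef1a1* (5051 CPM), *Ptma* (4371 CPM), *H2afz* (3279 CPM), *Hsp90ab1*, *Ppia*, *Fau* and *H3f3a* had ratios to the other barcodes between 0.668 and 1.29. *Fth1*, *Ftl1*, *Prdx2*, *Gpx1* and the metallothionein gene *Mt1* had ratios of 3.14 and above. *Mt1*, whose product binds zinc and copper, had 3304 CPM against 31.2, a 106-fold difference, with 244 CPM in macrophage-gene and 29.7 in endothelial-gene barcodes. *Gm42418*, which overlaps ribosomal RNA and so cannot be read as a gene of its own, had 2850 CPM. Genes of ribosomal proteins (names that begin with Rpl or Rps) made up 24.3% of non-globin UMIs in members, 29.2% in low-neural members and 16.9% in other barcodes.

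Several measures bear on how far the cells had matured. Defining genes of early progenitors were at or near 0. *Kit* had 6 UMIs in all members and 0 in low-neural ones, *Gata2* 1 UMI, and *Cd34* and *Spi1* none, and 9 members had a UMI of *Myb*. *Lyl1*, a blood transcription factor, was the one of 10 genes to pass in all members, at 47.9 CPM and 94.4-fold higher. *Runx1* stood at 12.9 CPM with a ratio of 4.1, and in low-neural members it passed too, at 20.4 CPM and 6.45-fold (3.86 to 10.2). *Meis1* and *Mycn*, at 31.1 and 19.4 CPM, were lower than in the other barcodes, which use them too. At the other end, 6 of 23 genes of late maturation were at least 4-fold higher. *Hemgn* (575 CPM, 236-fold), *Hebp1* (246 CPM, 58.8-fold), *Ube2l6* (189 CPM, 43.4-fold) and *Trim10* (148 CPM, 242-fold) were well expressed. *Tent5c* was 21.6-fold higher, and *Fbxo7* 4.75-fold. *Trim58*, whose product helps erythroblasts shed their nuclei, had a UMI in 5 members and *Tspo2* in 6, while *Alox15* and *Isg20* had none. *Bnip3l*, which drives the clearance of mitochondria, had a ratio of 1.30 (1.18 to 1.42).

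The nuclear RNA *Malat1* was found in 509 of 515 members, with 0 to 278 UMIs and a median of 14. Its level was 5043 CPM against 3615 in the other barcodes, a ratio of 1.40 (1.37 to 1.42). With each cell thinned to 1400 non-globin UMIs, which left out 48 shallower members, 14 low-neural ones and 840 other barcodes, *Malat1* had a UMI in 98.1% of members (96.4 to 99.1), 97.0% of low-neural members and 94.8% of other barcodes. The unthinned shares were 98.8, 99.6 and 97.8%. The 6 nuclear RNAs of the list were mixed, with a median log2 ratio of -0.44 in members and -0.65 in low-neural members. *Meg3*, which neurons use, was at a ratio of 0.0212 in low-neural members, *Kcnq1ot1* at 0.368 and *Xist* at 1.10, and *Neat1*, at 9.92 CPM in members, had a ratio of 2.84.

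Genes of the cell cycle stood near their level in the other barcodes. The 25 genes of G2 and mitosis came to 7645 CPM in members and 8231 CPM in low-neural members against 6412 CPM, and the 26 S phase genes to 3365 and 3117 CPM against 3590 CPM. None of these 51 genes was 4-fold higher in members, and *Hells* in low-neural members was the sole one 4-fold lower. *Mki67*, which marks cycling cells, was the most raised of them with 549 CPM against 190, or 2.89-fold (2.73 to 3.06), and 3.85-fold in low-neural members. After thinning it had a UMI in 51.2% of members (46.5 to 55.8), 55.3% of low-neural members and 17.1% of other barcodes, and *Top2a* in 58.0, 58.0 and 38.2%. Unthinned, the shares of *Mki67* were 70.7, 72.7 and 55.3% and those of *Top2a* 75.3, 76.6 and 68.7%. By level *Hmgb2* (1824 against 1792 CPM) and *Ube2c* (606 against 626 CPM) differed little. By thinned share *Hmgb2* was in 89.1% of members (85.9 to 91.8) and 79.9% of other barcodes (79.2 to 80.7), and *Ube2c* in 45.2% (40.6 to 49.8) and 39.8% (38.9 to 40.7), with 50% in low-neural members (43.8 to 56.2). Unthinned, *Hmgb2* was in 94.95, 95.7 and 93.7% of members, low-neural members and other barcodes, and *Ube2c* in 62.5, 62.2 and 71.6%, the other way round. As references for stray RNA in the same thinned cells, *Epor* was found in 25.5% of members, 33.3% of low-neural members and 0.208% of other barcodes, and *Sox2*, a neural progenitor gene, in 8.35, 2.27 and 32.3%. Unthinned, these shares were 45.4, 49.3 and 1.08% for *Epor* and 16.3, 4.32 and 70.0% for *Sox2*. Most other barcodes are themselves a mixture of cycling progenitors and neurons, so the comparison is with that mixture.

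Of 7 factors known to act in the switch between globin types, *Klf1* and the lymphoid and erythroid factor gene *Ikzf1* (128 CPM, 28.9-fold) passed in all members, and *Zbtb7a* as well in low-neural ones (4.35-fold). Others were low. In low-neural members *Bcl11a* stood at 11.8 CPM and *Sox6* at 15.01 CPM, with a UMI in 3.96% and 4.32% of them, and *Lin28b* at 12.9 CPM. With all members the 3 levels were 89.3, 146 and 53.1 CPM, and in the other barcodes 209, 484 and 126 CPM.

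Embryonic chains made up most of the globin. *Hbb-y* made up 84.7% of β-type UMIs and *Hba-x* 63.3% of α-type UMIs. The adult genes *Hbb-bs* and *Hbb-bt* together had a median of 5.35% of β-type UMIs per member, and the second highest member had 16.0%. The adult α genes *Hba-a1* and *Hba-a2*, by contrast, had a median of 39.3% of α-type UMIs. Just 1 of 515 members had more than 50% adult β UMIs. That member held 2724 UMIs, 14.98% of them globin, 79.6% adult among its 113 β-type UMIs and 97.3% adult among its α-type UMIs, and Scrublet did not mark it.

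The rest of its RNA differed too. It held 75 UMIs of *Ctla2a*, a protease inhibitor gene with a close paralog, against 1 UMI in the other 514 members together, and 163 UMIs of *Malat1*, or 70380 CPM. Of 12 megakaryocyte and platelet genes 6 had a UMI in it, 6 UMIs in all, where no other member had UMIs of more than 2 of these genes or more than 3 of their UMIs. It had 3 UMIs of the haem list, 11 of the membrane list and 0 of the macrophage list. Ribosomal protein genes made up 7.43% of its non-globin UMIs and mitochondrial genes 0.907%, against 24.4 and 4.86% in the other members. A single barcode has no replicate, so it is given no cell type.

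Members also varied along their globin share. When the 278 low-neural members were put in 4 bins of rising globin share, with medians of 47.4, 52.4, 56.1 and 61.8%, the bins had similar non-globin depth, with median UMIs of 2444, 2643, 2620 and 2640. The bins rest on the value that chose the members, so these are descriptions. The summed level of the iron list went from 26963 CPM (26270 to 27668) through 30321 and 34506 to 43395 CPM (42575 to 44227), and the redox list from 17308 CPM (16754 to 17875) to 25599 CPM (24970 to 26239). By gene, 1 of 13 iron genes of at least 50 CPM (*Ftl1*) was 2-fold higher in the last bin, 0 of 14 redox genes and 0 of 8 haem enzymes, with median log2 ratios of 0.33, 0.38 and 0.34, and most of the gain of the iron list came from *Fth1* and *Ftl1*. Haem synthesis went from 5380 CPM (5074 to 5701) to 6475 CPM (6161 to 6801). The membrane list went from 8052 through 7338 and 8019 to 8576 CPM, and the intervals of the first and last bin overlapped. The list of erythroid factors stood at 1547 and 1596 CPM. Late maturation went from 3239 CPM (3002 to 3489) to 4219 CPM (3966 to 4484), with 1 of 15 genes of at least 50 CPM 2-fold higher. The mitochondrial share of non-globin UMIs fell from 7.99% through 6.58 and 4.96 to 3.76%. Over the same bins S phase genes went from 3276 CPM (3038 to 3528) to 2822 CPM (2616 to 3040), intervals that touch, and G2 and mitosis genes from 8141 to 9159 CPM with a dip to 7061 CPM in the second bin.

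By gene, 101 of 3259 were at least 2-fold higher in the last bin than in the first (3.1%) and 368 at least 2-fold lower (11.3%), and for 56 and 207 of them the counting interval left out 1. *Ftl1* rose from 5221 to 10633 CPM, 2.04-fold (1.90 to 2.19), *Fth1* from 17252 to 27370 CPM, 1.59-fold (1.52 to 1.65), *Gpx1* 1.71-fold and *Prdx2* 1.55-fold. *Alas2* went from 769 to 1136 CPM, while *Slc4a1* (0.91, 0.77 to 1.09) and *Tfrc* (0.87, 0.61 to 1.23) had intervals that held 1. Among genes of at least 100 CPM the highest ratio was that of the growth arrest gene *Gadd45a*, from 60.9 to 200 CPM, 3.28-fold (1.75 to 6.58), and *Cdkn3* went from 70.3 to 191 CPM. At the low end stood *Polq*, a DNA repair polymerase, with 28 and 3 UMIs in the first and last bin (ratio 0.0931, 0.0181 to 0.301), the mitochondrial *mt-Nd6* with 25 and 4 UMIs, and *mt-Nd3*, which fell from 1026 through 788 and 494 to 309 CPM. *Xist*, the RNA of the inactive X chromosome, went from 909 to 362 CPM. The embryos were pooled, and the part of their sex in this was not tested. Over all 515 members 343 of 4036 genes were higher in the last bin (8.5%) and 1299 lower (32.2%), with neural list levels of 7877 CPM in the first bin and 1778, 1736 and 1681 CPM in the next ones, and the lowest ratios were those of neural genes such as *Nrxn3*, *Npas3* and *Robo1*.

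**Figure D4:**
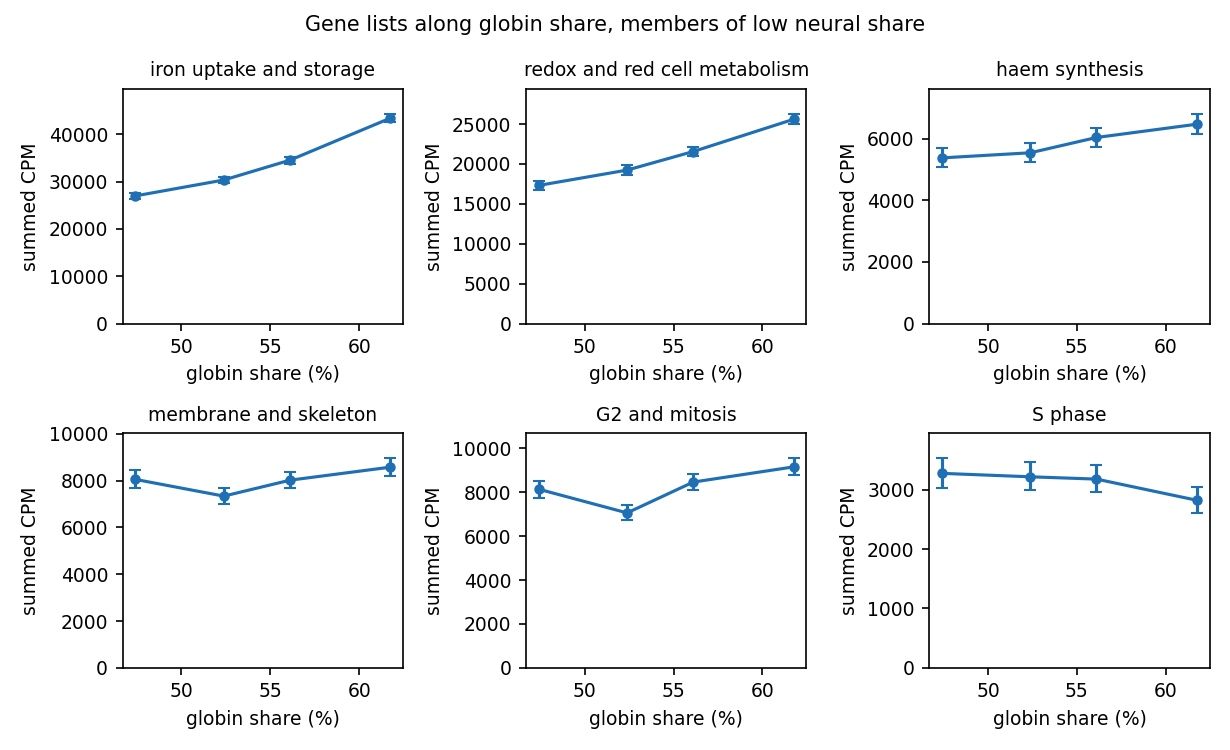
Summed CPM of 6 gene lists (y axes, starting at 0) in 4 bins of the 278 low-neural members by globin share (x axes, the median of each bin in %); bars are exact Poisson 95% intervals. The summed iron and redox levels climb over all 4 bins, the former mostly through *Fth1* and *Ftl1*, the haem sum goes from 5380 to 6475 CPM, and the membrane list ends near where it began.

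A second kind of variation ran through the globin types. Among the 278 low-neural members the adult share of α-type UMIs went from 17.0 to 57.5%, and the share of *Hbb-bh1* in the embryonic β-type UMIs from 0.934 to 25.3%. Members with more adult α had less *Hbb-bh1*, with a Spearman correlation of -0.60 over 278 cells of 1 library, and -0.49 and -0.65 in the 139 shallower and 139 deeper cells. The adult α share also went with depth, at -0.51 with UMIs per cell. With the globin share it stood at 0.10, and at 0.12 and 0.21 in the shallower and deeper cells. How many UMIs were captured and how much RNA a cell held cannot be told apart. The median depth was 11066.5 UMIs in the bin of lowest adult α share and 5480.5, 5340 and 4446 in the next ones.

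Genes outside the globins were then read in this order. In the bin of highest adult α share 210 of 3166 genes were at least 2-fold higher than in that of the lowest (6.63%) and 177 at least 2-fold lower (5.59%), of which 108 and 63 had an interval that left out 1, and 50 CPM stand for 7.44 UMIs in the last bin. *Hsd3b6* (3:98805504-98814443 on GRCm38) stood at 162, 151, 215 and 471 CPM over the 4 bins, 2.90-fold higher at the end (2.04 to 4.12). *Hist1h1b*, a linker histone gene that is copied in S phase, fell over all 4 bins from 383 through 180 and 116 to 94.1 CPM, a ratio of 0.25 (0.13 to 0.42). *Malat1* rose over all 4, from 4250 through 5385 and 6330 to 8294 CPM, 1.95-fold (1.81 to 2.1), and *Slc4a1* from 941 to 1412 CPM (ratio 1.499, 1.26 to 1.78). *Alas2* (1.05), *Prdx2* (1.03) and *Hmgb2* (1.01) had ratios near 1, with intervals that held 1, and the haem list stood at 5813 and 6076 CPM. The iron list went from 33757 (33195 to 34327) to 37957 CPM (36973 to 38960), with a dip to 31976 CPM in the second bin. The membrane list went from 7477 (7214 to 7748) to 8530 CPM (8067 to 9012). By gene, 1 of 13 iron and 0 of 18 membrane genes of at least 50 CPM were 2-fold higher. The redox list stood at 21573 and 22027 CPM, with overlapping intervals. S phase genes went from 3222 (3050 to 3402) to 2810 CPM (2547 to 3092), intervals that overlap. G2 and mitosis genes went from 8642 (8359 to 8933) to 8173 CPM (7720 to 8646), with overlapping intervals too. Over the same bins the mitochondrial share of non-globin UMIs stood at 4.18, 6.90, 6.66 and 7.29%, and the ribosomal share fell from 30.9 to 26.7%. Their part in the *Malat1* and *Hsd3b6* values was not tested. Ordered by falling *Hbb-bh1* share in place of the adult α share, 195 of 3168 genes were higher (6.16%) and 198 lower (6.25%). *Hsd3b6* was 3.25-fold higher (2.20 to 4.85) in that order, *Malat1* 2.04-fold (1.89 to 2.21) and *Hist1h1b* 0.44 of its first level (0.26 to 0.71), where the last went less far. Median depth fell in this order too, from 6951 through 6174 and 5848 to 4491 UMIs, and its part was not tested. The highest ratio in this order was that of the neural guidance gene *Dcc*, with 8 UMIs in the first bin and 31 in the last (6.95-fold, 3.13 to 17.5), and *Tubb2b* of the neural list was 3.06-fold higher (1.63 to 5.94). Of the neural list 2 of 7 genes of at least 50 CPM were 2-fold higher in this order and 1 of 6 in the adult α order, where *Dcc* was 3.16-fold higher (1.80 to 5.55). The summed neural list went from 1230 to 1198 CPM by falling *Hbb-bh1* share and from 1300 to 1156 CPM in the adult α order. The part of neural RNA in these orders was not tested. By falling *Hbb-bh1* share S phase genes went from 3478 to 2867 CPM, downward as in the adult α order. G2 and mitosis genes went from 7553 to 9279 CPM, whereas in the adult α order they ended lower with overlapping intervals. The mitochondrial share by falling *Hbb-bh1* share went from 5.40 to 6.87%. In that order the iron list went from 31194 (30562 to 31836) to 38307 CPM (37369 to 39262). Membrane genes went from 7553 (7244 to 7873) to 8759 CPM (8313 to 9222). Redox genes went from 20007 (19502 to 20523) to 21860 CPM (21153 to 22585). By gene, 0 of 12 iron, 1 of 18 membrane and 1 of 14 redox genes were 2-fold higher. The haem list went from 5598 to 6055 CPM, with overlapping intervals. Among the 330 members with at least 50% globin, ordered by adult α share, 206 of 3122 genes were higher (6.6%) and 137 lower (4.39%), *Hsd3b6* was 3.13-fold higher and *Hist1h1b* went from 379 to 121 CPM, while the neural list went from 1455 to 2303 CPM. Median depth there went from 8992 UMIs in the first bin to 4569.5 in the last. These orders were chosen after the data had been seen. They use overlapping cells and shares that go together, so they are no separate evidence.

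**Figure D5:**
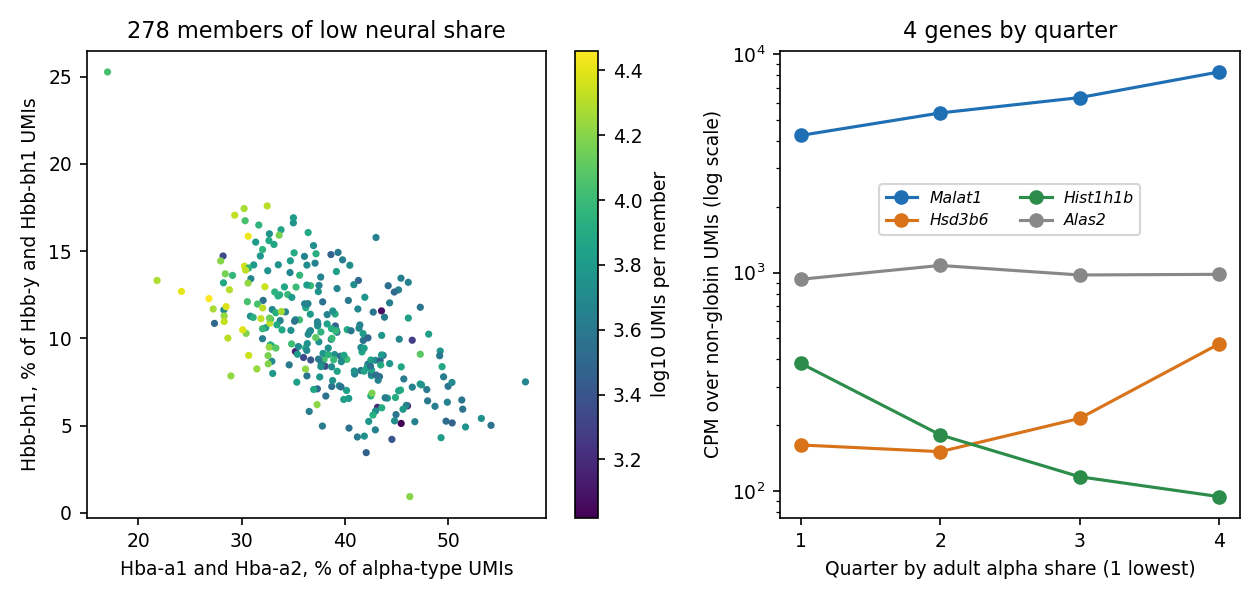
Left, each of the 278 low-neural members by the adult share of its α-type globin UMIs (x axis, %) and by the share of *Hbb-bh1* in its *Hbb-y* and *Hbb-bh1* UMIs (y axis, %), coloured by log10 UMIs; deep cells gather at low adult α share. Right, CPM (log scale) of *Malat1*, *Hsd3b6*, *Hist1h1b* and *Alas2* in 4 bins of rising adult α share, in which the first 2 end higher, *Hist1h1b* falls from 383 to 94.1 CPM and *Alas2* stays level, at 932 and 981 CPM in the first and last bin.

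The other library of the series, from septal explants, also held such cells. Per the study's methods it pooled E11.5 *PGK* Cre embryos with a YFP reporter and E12.5 *Dbx1* Cre embryos with a tdTomato reporter. Stage and genotype therefore go together in it. There 90 of 5827 barcodes met the same rule, with a median of 65.7% globin (10.8 to 89.4) and 25651.5 UMIs. *Hbb-y* led with 789337 UMIs, ahead of *Hba-x* with 203966, and *Alas2* had 2888 UMIs. That library was made with another kit version and another version of the counting software, so its levels were not compared. The libraries shared 1 barcode sequence, which belonged to none of the cells described.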

How the data were processed

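Per the labels and the study's methods, telencephalic vesicles were dissociated, filtered and run on a droplet platform, and the authors counted UMIs per gene and barcode with Cell Ranger (7.1.0 for this library, 2.1.1 for the septal explants, mm10, per the submitters' processing notes). The deposited values are raw counts of UMIs, not normalized, for 32286 features and 14283 barcodes, 194821794 UMIs in all. Whether intronic reads were counted is not given in the sources used here.

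Counts were summed over members and over the other barcodes of at least 1000 UMIs and scaled to CPM over non-globin UMIs. A gene was compared with at least 20 CPM in either sum (50 CPM in bins), and called past 4-fold (2-fold between bins). Gene sums at 0 were set to a floor of 3 counts per sum. Poisson, Clopper-Pearson and conditional binomial intervals (95%) cover counting error only. Cells were thinned to 1400 non-globin UMIs for shares of cells. Scrublet (scanpy 1.11.5), with 10.7% doublets expected, marked 766 of 13373 barcodes, which were kept unless stated. Coordinates came from GENCODE M21, which held 32158 features. Tables were made with pandas 2.3.3 and numpy 2.4.6, intervals with scipy 1.17.1 and plots with matplotlib 3.10.9 under Python 3.11.15.

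Named genes were those of the fixed lists, the 15 highest and 10 lowest ratios with at least 100 CPM, the 15 most abundant, and the 10 highest and 10 lowest along each order. Values of a few further genes along the orders, such as *Xist* and *Malat1*, were chosen after they had been seen. The members and lists were chosen with earlier results of these data known. The genes of the fixed lists include 12 of the response to dissociation, which came to 400 CPM in members and 420 CPM in the other barcodes with *Btg2* the most abundant in members, and 6 nuclear RNAs, which came to 5944 and 4854 CPM.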

Additional observations from a re-analysis of the deposited data

Results flagged for a closer look

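A bacterial *LacZ* sequence is among the counted features although the labels call the embryos wild-type. It had 11 UMIs in 9 barcodes of the telencephalic library, and 0 of them were in the 515 erythroid members. The floor of 3 counts set for sums at 0 is no detection limit for it. With 1 library there is no control to set this against.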

How the results depend on the processing

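No paired analysis was possible because each group has 1 library, and for the same reason no replicate could be left out. With at least 5% globin there were 989 members with a median of 11.9% globin, 2 lower genes, and a ratio of median non-globin UMIs between the last and first bin of globin share of 1.92, against 0.301 over all 515 members (medians of 7224 and 2171 UMIs), which turned its direction. With at least 20% globin the median was 53.7%, 1001 genes were lower, the depth ratio was 0.749, 921 genes changed along globin share against 1642, and 0 members had adult-type β globin. With at least 50% these were 330 members, 55.8%, 1836, 0.883, 346 and 0. With barcodes from 500 UMIs the median was 48.4% and the depth ratio turned to 3.54. Leaving out high mitochondrial shares gave a median of 53.6%. Without Scrublet-marked barcodes the values were 53.7%, 1434 lower genes, a depth ratio of 0.901 and 759 changing genes. Against 266 higher and 60 lower genes, CPM over all UMIs gave 156 and 1152, a minimum of 100 CPM 120 and 2, no minimum 904 and 549, 2-fold 525 and 1569, and 8-fold 3 lower. With 3 bins the depth ratio was 0.496, and ordered by total UMIs it turned to 5.95, with 916 changing genes. A minimum of 200 CPM left 343. At least 80% adult β UMIs left 0 adult-type members. Low-neural members gave 1815 lower genes, 469 changing genes and a depth ratio of 1.08 with an interval that held 1 (0.708 to 1.49). That interval divides the bounds of both medians, so it reflects the spread over cells and has no exact level. Orders chosen after seeing the data gave 387 (adult α share), 393 (falling *Hbb-bh1* share) and 343 (at least 50% globin). The causes were not tested. The other 48 values computed under these alternatives stayed within 1.5 times the reported count or within the interval of the reported value. Depth limits the bins, since 50 CPM stands for 10.7 UMIs in the first bin of low-neural members.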
